A study of Mus musculus with 24 samples.

Results

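Genes of the epididymis epithelium were read in epididymal fat and liver arrays of mice that lacked or carried GPR120, a receptor for long-chain fatty acids encoded by Ffar4. The epididymis is the sperm duct to which the epididymal fat pad is attached. A list of 34 genes was named by function: lipocalins, cystatins, defensins, proteases and their inhibitors, CRISP proteins, enzymes, surface proteins, transcription factors, keratins and adhesion proteins. Of these, 26 had a probe set that the annotation of the array gave to that gene alone, out of 18193 genes with such a probe set, and the probe set with the highest mean over the 12 fat arrays stood for each. The other 8 (Lcn6, Lcn10, Cst8, Defb12, Spag11b, Crisp1, Rnase9 and Pax2) were not analysed here. The genes were chosen by their difference between diets on these same fat arrays, so that difference is described below without a test.

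The study held 12 mice of a mixed 129/Sv and C57BL/6 background, each of which supplied fat and liver, and the 24 Affymetrix arrays formed 8 groups of 3. The groups were GPR120 knockout (KO) mice on a high-fat diet (HFD; mice 427, 428 and 429), wild-type (WT) mice on HFD (546, 547 and 560), KO mice on a normal diet (ND; 718, 719 and 720) and WT mice on ND (686, 687 and 690). The allele, the age of the mice and the time on diet are not given in the sources used here, and 3 arrays a group limit the precision throughout. Values are MAS5 signals in intensity units, which compare 1 probe set between arrays and not different probe sets with each other. Sums, shares and rankings over genes below are therefore of signal and not of amounts of transcript.

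The genotype and tissue labels were checked first. Ffar4 averaged 26.7 ± 3.68 (SD, n = 3) in KO fat and 131.6 ± 37.4 in WT fat on HFD, and 34.5 ± 1.06 in KO fat and 64.6 ± 8.07 in WT fat on ND, with no overlap between genotypes on either diet. In liver, where the gene is dim, the same probe set ran against the labels, with 13.51 to 18.34 on KO and 0.55 to 1.63 on WT arrays on HFD, and 21.51 to 36.83 on KO and 1.07 to 17.3 on WT arrays on ND, again without overlap. The labels do not say whether the probe set falls in the deleted stretch, so KO and WT below mean the arrays labelled so. The summed signal of 13 adipocyte genes was 29995 to 47527 on the 6 HFD fat arrays and 19800 to 32365 on the 6 ND fat arrays, so every fat array held adipocyte transcripts. The log2 ratio of the 3' to the 5' Actb control probe sets, a sign of RNA quality or labelling, was 0.62 to 0.80 in KO fat and 1.13 to 1.68 in WT fat on HFD, and 0.72 to 0.85 in KO fat and 0.88 to 0.92 in WT fat on ND. Its part in the results below was not tested. The fat array of KO mouse 427 stood apart from the other HFD fat arrays, and those of WT mice 686 and 690 held more sperm transcripts than the other ND fat arrays; results that rest on them are given with and without them or with their values.

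The epithelium of the epididymis secretes lipocalins, protease inhibitors, defensins and antioxidant enzymes into the fluid in which sperm mature, and most of these genes have few other sites of expression. The duct is divided into regions that make different sets of these proteins, and many of the genes need androgens. Keratins 8 and 18, E-cadherin and Epcam are shared with other simple epithelia, whereas liver parenchyma makes keratins 8 and 18 but few of the secreted proteins.

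Many of the secreted proteins are encoded in clusters. Lcn8, Lcn5, Lcn6 and Lcn10 follow each other on chromosome 2, with Lcn12 and Lcn9 nearby, and Cst12 and Cst8 lie beside each other on the same chromosome. RefSeq promoters (build GRCm38.p6) were at hand for 25 of the 34 genes and for 19 of the 26 with a probe set. The 250 bases before the annotated start are shown for 5 genes on which the results turn: the lipocalin genes Lcn5 and Lcn9, which stayed near background on every HFD fat array; Serpina1f, which was high on 1 HFD fat array; Wfdc2, which differed between genotypes in liver; and Krt18, a keratin gene read in fat and liver. Each sequence runs 5' to 3' on the strand of the gene, with CG dinucleotides in capitals.

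Lcn5, chr2:25657702-25657951, plus strand: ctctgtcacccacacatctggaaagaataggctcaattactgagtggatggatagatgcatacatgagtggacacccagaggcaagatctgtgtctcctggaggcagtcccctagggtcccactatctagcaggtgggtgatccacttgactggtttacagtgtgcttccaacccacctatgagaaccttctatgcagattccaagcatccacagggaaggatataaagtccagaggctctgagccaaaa

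Lcn9, chr2:25822903-25823152, plus strand: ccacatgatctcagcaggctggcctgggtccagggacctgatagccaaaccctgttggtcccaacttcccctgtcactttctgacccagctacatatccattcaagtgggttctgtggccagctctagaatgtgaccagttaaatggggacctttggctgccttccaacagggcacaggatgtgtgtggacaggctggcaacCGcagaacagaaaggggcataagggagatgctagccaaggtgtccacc

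Serpina1f, chr12:103695530-103695779, minus strand: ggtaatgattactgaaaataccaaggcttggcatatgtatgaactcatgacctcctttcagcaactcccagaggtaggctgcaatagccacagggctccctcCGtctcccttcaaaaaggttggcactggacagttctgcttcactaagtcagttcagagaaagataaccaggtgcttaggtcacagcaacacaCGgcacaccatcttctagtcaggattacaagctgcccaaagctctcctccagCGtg

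Wfdc2, chr2:164562465-164562714, plus strand: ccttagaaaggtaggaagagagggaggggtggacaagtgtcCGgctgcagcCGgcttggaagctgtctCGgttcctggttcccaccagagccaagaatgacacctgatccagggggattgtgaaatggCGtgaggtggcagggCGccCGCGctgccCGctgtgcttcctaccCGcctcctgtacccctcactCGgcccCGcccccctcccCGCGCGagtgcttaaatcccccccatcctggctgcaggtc

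Krt18, chr15:102027966-102028215, plus strand: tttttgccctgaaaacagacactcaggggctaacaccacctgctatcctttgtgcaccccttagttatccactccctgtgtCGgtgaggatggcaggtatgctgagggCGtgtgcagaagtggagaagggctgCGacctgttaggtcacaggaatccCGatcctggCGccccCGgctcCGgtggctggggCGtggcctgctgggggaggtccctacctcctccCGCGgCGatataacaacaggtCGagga

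The stretch before Lcn5 held 0 CG dinucleotides, that before Lcn9 held 1 and that before Serpina1f held 3, against 14 before Wfdc2 and 12 before Krt18. Over the 12 measured genes of secreted proteins with a promoter, Wfdc2 left out, the count was 0 to 5 with a median of 3, and the median over 27025 genes was 6. Of the 19 measured genes 15 had at most 5 CG dinucleotides, as did 49.5% of all genes. The hexamer AGAACA or its reverse complement TGTTCT, an arm of the androgen response element, was present in 6 of the 19 stretches and in 16.2% of all. These are counts of letters in a fixed window and say nothing of binding.

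On HFD fat arrays most of these transcripts were far lower than on ND fat arrays of both genotypes. Of the 26 genes 11 stayed under 19.3, the level of the median probe set in fat, on all 6 HFD arrays, and 16 did so on the 5 HFD arrays other than that of KO mouse 427, while Krt8 was above it on every HFD array. The 26 genes together made up 0.00179 to 0.118% of the summed signal of an HFD fat array and 0.968 to 1.32% of that of an ND fat array. Every HFD array lay below every ND array for 25 of 26 genes in KO fat, for 26 of 26 in WT fat, and for 25 of 26 over both genotypes. The same held for 27.9% of all genes in KO fat, 29.1% in WT fat and 15.3% over both, and nothing is read from these counts, since the genes were chosen with this difference in view. In bulk tissue, fewer cells of a type and less RNA per cell cannot be told apart. The labels do not say how much epididymis was taken with each fat pad. Its part in the difference between diets was not tested.

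Where a group averaged below 19.3, a fold is given as a bound against that level, which was the case on HFD for 17 of the 26 genes in KO fat and 21 in WT fat, and the others have plain folds. The median over these folds and bounds together was 79.4 in KO fat and 102 in WT fat, and without KO mouse 427, described below, it was 114 in KO fat. They ranged from at least 2.75 for Defb19 to at least 413 for Lcn5 in KO fat, and from a plain fold of 5.72 for Wfdc2 to at least 455 for Lcn5 in WT fat.

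**Figure D1:**
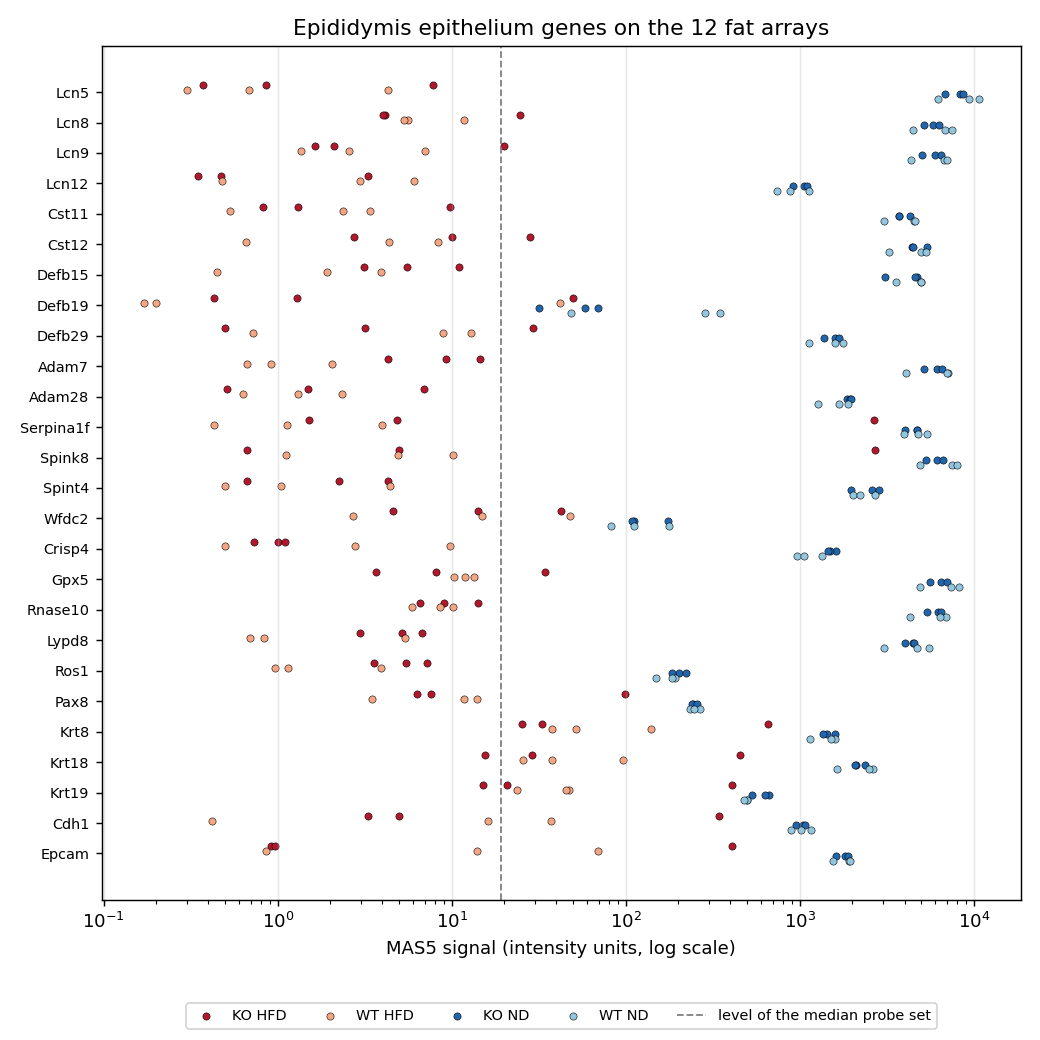
MAS5 signal (log scale, intensity units) of the 26 epididymis epithelium genes on each of the 12 fat arrays, with HFD arrays in red and orange, ND arrays in blue, and the level of the median probe set (19.3) dashed. On ND arrays 20 of 26 genes averaged at least 1000, most HFD points lie left of the dashed line, and the separate red points between 99.15 and 2700.3 are KO mouse 427.

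The lipocalins bind small hydrophobic molecules. Lcn5, which binds retinoic acid, had signals of 7.83, 0.37 and 0.86 in KO fat and 0.68, 0.30 and 4.32 in WT fat on HFD, against 8334, 8712 and 6872 in KO fat and 6229.8, 9422 and 10683 in WT fat on ND. It was at least 413-fold lower on HFD in KO mice and at least 455-fold lower in WT mice. Its relative Lcn8 was at 4.14, 24.59 and 4.03 in KO fat and 11.7, 5.59 and 5.33 in WT fat on HFD, and at 4473 or higher on every ND array, with 24.59 (KO mouse 428) the highest HFD value. Lcn9 lay at 1.37 to 19.95 on HFD arrays and 4366 to 7025 on ND arrays, and its highest HFD value again came from KO mouse 428. Lcn12 lay at 0.35 to 6.05 on HFD arrays and 741 to 1123 on ND arrays. No lipocalin exceeded 24.59 on any HFD array.

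Cystatins have the fold of cysteine protease inhibitors. Cst11 was at 1.31, 9.79 and 0.82 in KO fat and 3.39, 2.36 and 0.53 in WT fat on HFD, against 4295, 3734 and 3715 in KO fat and 3057, 4547 and 4602 in WT fat on ND. Cst12 lay at 0.66 to 28.2 on HFD arrays and 3246 to 5401 on ND arrays, its highest HFD value being that of KO mouse 427. The cystatin genes were thus at least 203-fold and 247-fold lower on HFD in KO fat, and at least 211-fold and 234-fold lower in WT fat.

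The beta-defensins are antimicrobial peptides, several of which coat sperm. Defb15 was at 5.56, 10.98 and 3.15 in KO fat and 1.92, 3.94 and 0.45 in WT fat on HFD, against 4706, 4590.2 and 3091 in KO fat and 3551, 4988 and 4956 in WT fat on ND. Defb29 lay at 0.50 to 29.25 on HFD arrays and 1124 to 1762 on ND arrays. Defb19, known also from the testis, was the exception among the 26 genes. It had 49.87, 1.29 and 0.43 in KO fat and 0.20, 0.17 and 41.81 in WT fat on HFD, against 31.7, 58.34 and 69.25 in KO fat and 346, 48.33 and 287 in WT fat on ND. Its groups overlapped between diets in KO fat.

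Proteases and their inhibitors formed the next group. Adam7, an epididymal ADAM protein that is transferred to sperm, was at 9.31, 14.6 and 4.29 in KO fat and 2.04, 0.67 and 0.91 in WT fat on HFD, against 6179.5, 6582 and 5175 in KO fat and 4089, 7142 and 7043 in WT fat on ND. Adam28 lay at 0.51 to 6.97 on HFD arrays and 1281 to 1982 on ND arrays; a dimmer probe set of the gene averaged 6.69 in KO fat and 7.84 in WT fat on HFD, and 75.95 in KO fat and 44.54 in WT fat on ND. Spint4, a Kunitz-type inhibitor, lay at 0.50 to 4.42 on HFD arrays and 1984 to 2844 on ND arrays.

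Serpina1f, an inhibitor of the serpin family, had signals of 2678, 4.86 and 1.52 in KO fat and 1.13, 4.0 and 0.43 in WT fat on HFD, against 4748, 4708 and 4023 in KO fat and 3998, 5351 and 4778 in WT fat on ND. The Kazal-type inhibitor gene Spink8 had 2700.3, 0.67 and 4.95 in KO fat and 10.23, 1.11 and 4.89 in WT fat on HFD, against 6115, 6624 and 5322 in KO fat and 4928, 7466 and 8039 in WT fat on ND. In both genes a single HFD array, KO mouse 427, was far above the others. The fold by which HFD was below ND in KO fat was 5.02 for Serpina1f and 6.67 for Spink8 with that mouse, and at least 233 and at least 312 without it. Wfdc2, a protein with whey acidic protein domains that many epithelia secrete, was dimmer, at 42.43, 14.08 and 4.59 in KO fat and 47.6, 2.72 and 14.91 in WT fat on HFD, against 176, 111 and 109 in KO fat and 82.43, 112 and 178 in WT fat on ND.

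The other secreted and surface proteins followed the lipocalins. Gpx5, a secreted glutathione peroxidase that protects sperm from oxidation, was at 8.17, 34.56 and 3.68 in KO fat and 10.37, 13.51 and 11.9 in WT fat on HFD, against 6484, 7056 and 5612 in KO fat and 4935, 7367 and 8196 in WT fat on ND. Rnase10, a secreted member of the ribonuclease family, lay at 5.92 to 14.22 on HFD arrays and 4282 to 6910.4 on ND arrays. Crisp4, a sperm-binding cysteine-rich secretory protein, lay at 0.50 to 9.83 on HFD arrays and 964 to 1607 on ND arrays. Lypd8, a protein with Ly6 domains, lay at 0.69 to 6.73 on HFD arrays and 3042 to 5528 on ND arrays. Ros1, a receptor kinase needed for the differentiation of the proximal epididymis, had 5.44, 7.17 and 3.58 in KO fat and 0.96, 1.14 and 3.94 in WT fat on HFD, against 201, 222 and 184 in KO fat and 149.8, 192 and 184 in WT fat on ND.

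Keratins, adhesion genes and Pax8, a transcription factor of urogenital epithelia, were likewise lower on HFD arrays, although the 3 keratins kept signals of 15.2 or more on every HFD array. Krt8 had 653, 33.15 and 25.45 in KO fat and 139.9, 51.8 and 37.83 in WT fat on HFD, against 1437, 1589 and 1359.65 in KO fat and 1150.28, 1604 and 1503 in WT fat on ND. Its partner Krt18 had 453, 28.97 and 15.49 in KO fat and 96.67, 37.61 and 25.83 in WT fat on HFD, against 2098, 2379 and 2086.5 in KO fat and 1642, 2637 and 2497 in WT fat on ND. Besides KO mouse 427, WT mouse 546 had the highest values of both keratins among HFD arrays. Epcam had 405, 0.91 and 0.97 in KO fat and 69.33, 0.86 and 13.99 in WT fat on HFD, against 1823, 1899 and 1607 in KO fat and 1550.46, 1915 and 1950.04 in WT fat on ND. Cdh1, which encodes E-cadherin, had 343, 5.0 and 3.32 in KO fat and 37.37, 0.42 and 16.09 in WT fat on HFD, and 885 to 1163 on ND arrays. On HFD a dimmer Epcam probe set averaged 40.1 in KO fat and 26.3 in WT fat. On ND it averaged 139.7 in KO fat and 134.9 in WT fat. A dimmer Pax8 probe set averaged 6.91 in KO fat and 2.80 in WT fat on HFD. On ND it averaged 17.0 in KO fat and 27.4 in WT fat. The other probe sets of Krt8 were lower on HFD as well.

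The HFD array of KO mouse 427 held 8 of the genes well above every other HFD array, at 20.4 to 73.6% of their ND means, and most others low. Relative to the mean of the 6 ND arrays its signal was 73.6% for Krt19, 58.2% for Serpina1f, 45.3% for Krt8, 42.1% for Spink8, 39.9% for Pax8, 33.6% for Cdh1, 22.6% for Epcam and 20.4% for Krt18. Defb19 and Wfdc2 also exceeded 10% there, but other HFD arrays reached similar values for these. By contrast 14 of the 26 genes were under 1% of their ND mean on this array, among them Lcn5 at 7.83, Gpx5 at 8.17 and Adam7 at 9.31. Of the lipocalins none reached 1%, and of the 4 protease inhibitors Spint4 at 0.67 was at background while Serpina1f and Spink8 were not.

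**Figure D2:**
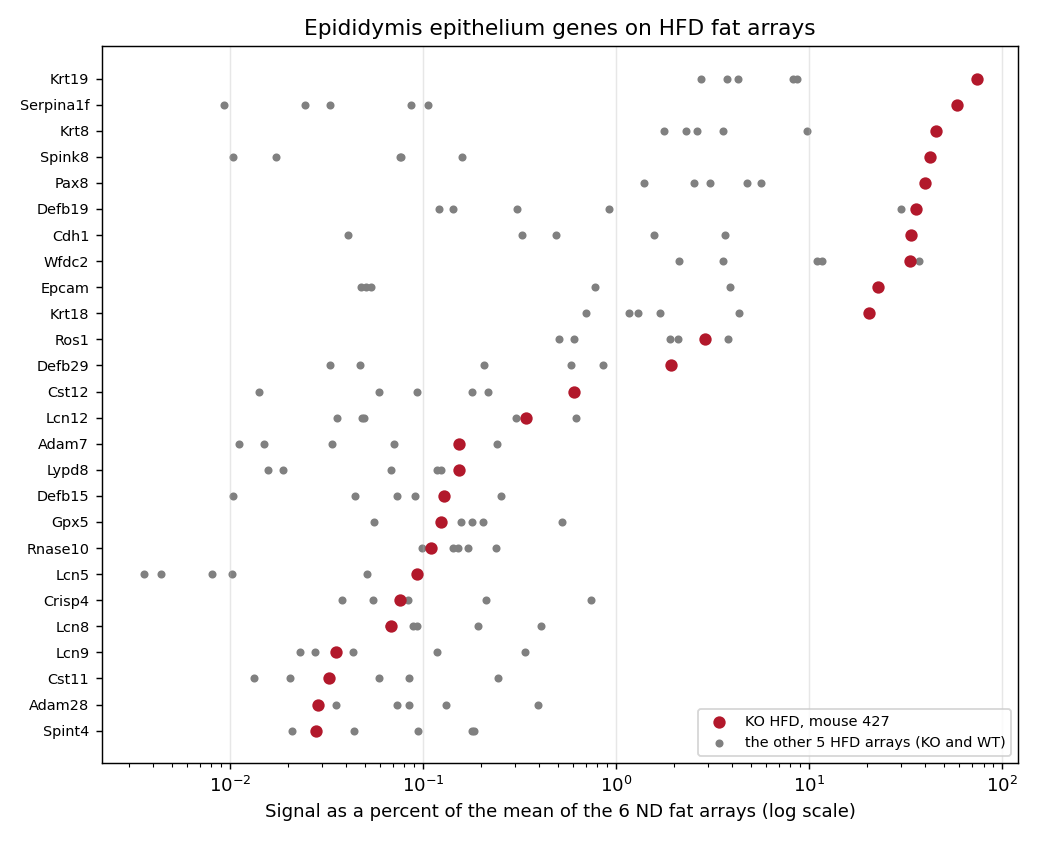
Signal on HFD fat arrays as a percent of the mean of the 6 ND fat arrays (log scale) for each of the 26 genes, with KO mouse 427 in large red points and the other 5 HFD arrays in small grey points. Mouse 427 stands apart for Krt19, Serpina1f, Krt8, Spink8, Pax8, Cdh1, Epcam and Krt18, and lies among or near the grey points for the lipocalins, the cystatins, Gpx5 and most others.

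A signal of at least 100 that was also over 4 times the highest other HFD fat array was found on mouse 427 for 7 of the 26 genes (Serpina1f, Spink8, Krt8, Krt18, Krt19, Cdh1 and Epcam), while 0.407% of all genes met this description. Pax8 missed it at 99.15, against at most 13.99 on the other HFD arrays. The description was chosen after the values of this mouse were seen, so no test is given. Over all genes 74 met it on mouse 427, and 0 to 22 on each of the other 5 HFD fat arrays, the most on WT mouse 547. Of the 74 genes 67 had an ND mean that met the same description against the other 5 HFD arrays. In all 635 genes had such an ND mean, so 10.6% of them were high on mouse 427 too.

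Among the genes outside the list that were high on mouse 427, again chosen after their values were seen, were the defensin gene Defb42 at 2178, Wfdc15b at 589 and Defb2 at 204. The highest values of these genes on the remaining HFD arrays were 13.77, 13.95 and 3.74. Their means over the ND arrays were 5095, 3026 and 1675. Genes of smooth muscle, which surrounds the duct, were also high: Myh11, the smooth muscle myosin heavy chain, was at 1783, the smooth muscle actin gene Actg2 at 1443 and the calponin gene Cnn1 at 823, while no remaining HFD array exceeded 296, 168 and 67.54 for them. Ptgs2, a prostaglandin synthase, was at 3463 against at most 41.21. Scgb1a1, a secretoglobin of airway epithelium, was at 510.2 on this array, with a highest value of 16.12 on the remaining HFD arrays and of 13.37 on ND arrays.

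Lists of other cell types were set beside these values. The lists were chosen with earlier results of these data known, so their counts are a description and not a test. Of 51 further epididymis genes 17 had a probe set, and 15 of the 17 had every HFD array below every ND array, against 15.3% of all genes; the brightest were Defb42, Ces5a, Teddm2 and Spink12. The same held for 3 of 3 genes of clear cells, the acid-secreting cells of the duct, for 4 of 4 genes of basal cells and for 13 of 14 general epithelial genes. It held for 2 of 3 bile duct genes, 2 of 7 seminal vesicle genes, 1 of 3 testis somatic genes and 5 of 15 sperm genes. Fewer did so among mesothelial (1 of 8), smooth muscle (1 of 7) and hepatocyte genes (1 of 8). None did among skeletal muscle (0 of 8), adipocyte (0 of 13), prostate (0 of 3), pancreatic acinar (0 of 3) and B cell and lymph node genes (0 of 4).

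The sums of these lists followed mouse 427 in part. General epithelial genes summed to 1539.6 on mouse 427 and 95.44 to 319 on the other HFD arrays, against 6980.02 to 9084 on ND arrays. Smooth muscle genes summed to 10723 on mouse 427 and 2223 to 5226 on the other HFD arrays, against 8263 to 11626 on ND arrays. Sperm genes summed to 1601 on mouse 427 and 45.84 to 425 on the other HFD arrays, against 1393 to 33751 on ND arrays. Genes of the mesothelium, which lines the fat pad, summed to 429 on mouse 427, within the range of 208 to 500.13 of the other HFD arrays, and to 397 to 671 on ND arrays. The 13 adipocyte genes summed to 29995 on mouse 427, the lowest HFD value. Lists of other organs also had sums that did not overlap between diets. Seminal vesicle genes summed to 161 on mouse 427 and 10.9 to 65.57 on the other HFD arrays, against 1893 to 3341 on ND arrays, mostly from Ceacam10, which averaged 46.91 in KO fat and 3.51 in WT fat on HFD and 2379.8 in KO fat and 2726 in WT fat on ND. Testis somatic genes summed to 19.38 to 52.51 on HFD arrays and 119 to 172 on ND arrays, and bile duct genes, among them the duct keratin gene Krt7, to 24.88 to 86.49 on HFD arrays and 231 to 339.99 on ND arrays. The part of these cells in the signals of the 26 genes was not tested.

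**Figure D3:**
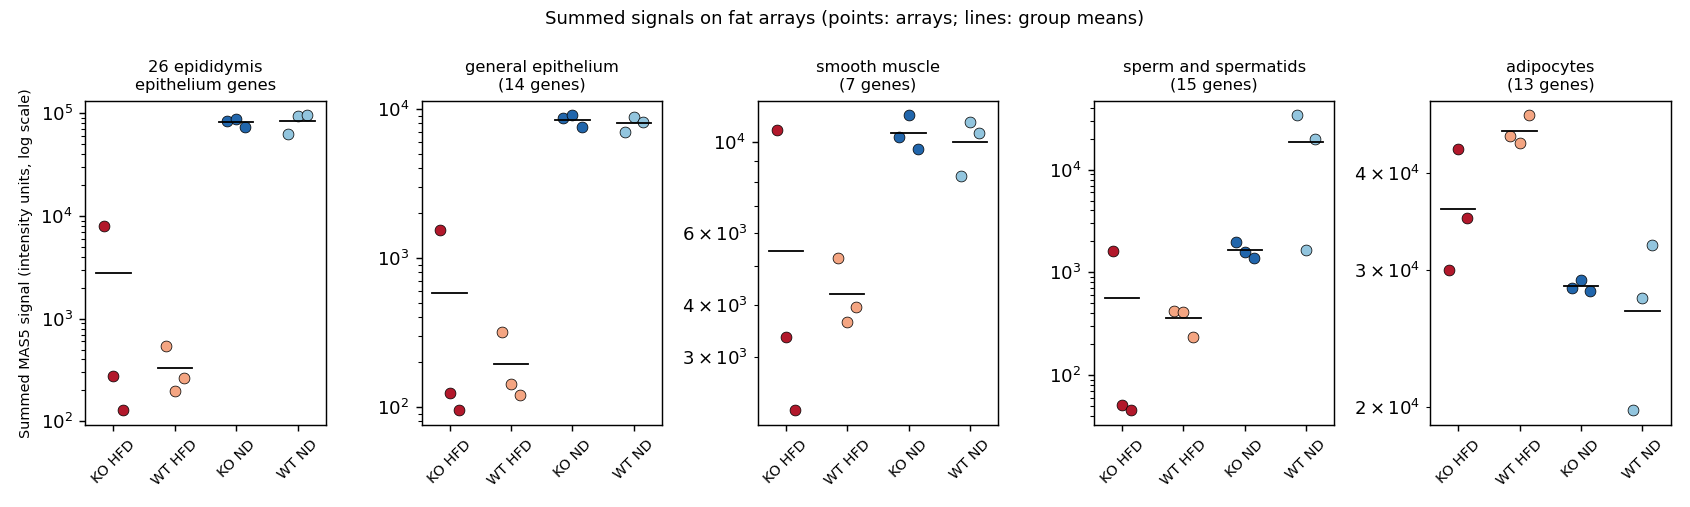
Summed MAS5 signal (log scale, intensity units) of the 26 epididymis epithelium genes and of lists of general epithelium, smooth muscle, sperm and adipocyte genes on each fat array (points) with the mean of each group (line). KO mouse 427 is the high KO HFD point in the first 4 panels (7951, 1539.56, 10723 and 1601) and the low one for adipocytes (29995).

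The pattern of high ND fat signal with low HFD fat and liver signal was shared with further genes. A mean of at least 1000 over the 6 ND fat arrays with every HFD fat and liver array under 100 was met by 39 of 18193 genes, of which 14 were on the list and 25 were not. The 10 brightest of the 25 were Epp13, Cstdc2, Pate5, Slc38a5, Muc15, Pate6, BC048679, Teddm2, Spink12 and Ido1. Epp13 averaged 5031 on ND arrays, with a highest HFD value of 8.52 and a highest liver value of 32.05. Ido1, a tryptophan-degrading enzyme, averaged 2496 on ND arrays, with a highest HFD value of 15.49. None of the 10 exceeded 38.78 on an HFD array, and mouse 427 was at 0.83 to 27.98 for them.

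The ND arrays varied little among themselves. The coefficient of variation over the 6 ND fat arrays was 4.92% for Pax8 and at most 30.9% (Wfdc2) for the other genes except Defb19, where it was 98.8%, with a median of 16.2% over the 26. WT mouse 686 had the lowest of the 6 ND values for 22 of the 26 genes, and for 42.9% of all genes above the filter. That array also had the lowest summed adipocyte signal (19800.25) and the highest summed sperm signal (33751) of the fat arrays.

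Whether the genotype affected the epididymal signal was asked within each diet, a comparison that did not enter the choice of genes. On ND all 26 genes passed the filter, and 0 were called between KO and WT fat by limma (adjusted p under 0.05 over all genes), where 0.0762% of the 11811 genes tested were called. At an unadjusted p under 0.05 there were 3 of the 26 and 2024 of all genes. Differences are given as log2, KO minus WT. They were above 0 for 14 and below 0 for 12 of the 26, with a median of 0.01 (0.06 over all genes tested), and apart from Defb19 they lay between -0.15 and 0.45. The 95% intervals of these 25 genes ran from -0.67 at the lowest bound to 0.86 at the highest, so differences within that range are not excluded by 3 arrays a group.

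Crisp4 had 1607, 1490.33 and 1447 in KO fat and 964, 1339 and 1059 in WT fat on ND. The difference was 0.45 ± 0.14 (SE; limma adjusted p = 0.217). Krt19 had 535, 666 and 633 in KO fat and 497, 501 and 477 in WT fat on ND, with a difference of 0.31 ± 0.11 (limma adjusted p = 0.253). For Lcn5 the difference was -0.11 ± 0.24 (limma adjusted p = 0.851), with a 95% interval of -0.66 to 0.44. For Pax8 it was -0.02 ± 0.10, with an interval of -0.25 to 0.22.

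Defb19 differed by -1.74 ± 0.73 (limma adjusted p = 0.288), and its WT values were split. The summed sperm signal was 33751, 1659 and 19983 in WT mice 686, 687 and 690, in which Defb19 was at 346, 48.33 and 287, and 1393 to 1954 in the KO mice on ND. The WT array with little sperm signal (48.33) lay within the range of the KO arrays (31.7 to 69.25). The part of the sperm signal in the Defb19 difference was not tested. Without WT mouse 687, the WT arrays left were those of mice 686 and 690, with the highest sperm sums. In that fit Defb19 was lower in KO fat by 2.64 (limma adjusted p = 0.00564) and Crisp4 higher by 0.58 (limma adjusted p = 0.0366). There 926 genes in all were called, against 9 with mouse 687. The 15 further epididymis genes tested had a median difference of -0.08.

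On HFD the fat arrays allowed little comparison of the genotypes. Only Krt8, Krt18 and Krt19 passed the filter, and 0 of these 3 were called by limma, or reached an unadjusted p under 0.05, where 16.6% of 11308 genes were called. The differences were 0.34 ± 1.18 for Krt8, 0.37 ± 1.18 for Krt18 and 0.44 ± 1.14 for Krt19, with limma adjusted p of 0.822 to 0.874. Mouse 427 set both the spread and the direction: Krt19 had 406, 20.68 and 15.2 in KO fat and 47.5, 45.25 and 23.62 in WT fat on HFD. Without it the KO means were 29.3 for Krt8, 22.2 for Krt18 and 17.9 for Krt19, below the WT means of 76.5, 53.4 and 38.8, and 0 of the 3 were called. The other 23 genes lay under the filter and were not tested.

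Liver served as a tissue without epididymis. There 8 of the 26 genes passed the filter, whose level in liver was 12.95: Wfdc2, Krt8, Krt18, Cdh1, Epcam, Gpx5, Spink8 and Rnase10. The other 18 did not exceed 38.25 on any liver array. Krt8 and Krt18 are the keratins of hepatocytes, and Cdh1 is made by part of them. Of the 8 genes 2 were called between KO and WT liver on HFD by limma (6.75% of the 10958 genes tested), 1 on ND (4.86%), 4 between HFD and ND in KO liver (17.0%) and 2 in WT liver (12.8%). Gpx5 is 1 of the 4 and 1 of the 2 calls for diet. It passed the filter only through its ND arrays, so its calls for diet are not read as a test. Spink8, with HFD means of 8.25 in KO liver and 10.93 in WT liver, entered the 8 in the same way and was not called.

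Wfdc2 was higher in liver labelled KO than in liver labelled WT on HFD, directions that rest on labels which Ffar4 did not bear out in liver. It had 306, 379.88 and 366 in KO liver and 48.25, 59.22 and 52.58 in WT liver on HFD, and 124, 136 and 219.5 in KO liver and 97.14, 137 and 91.99 in WT liver on ND. The KO and WT arrays did not overlap on HFD and overlapped on ND. On HFD the difference was 2.72 ± 0.21 (6.57-fold, limma adjusted p = 9.92e-06). On ND it was 0.53 ± 0.21 (limma adjusted p = 0.171), which did not pass.

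Wfdc2 moved in opposite directions with diet in KO and WT liver. It rose by 1.17 ± 0.21 on HFD in KO liver (limma adjusted p = 0.00302) and fell by 1.01 ± 0.21 on HFD in WT liver (limma adjusted p = 0.00914). The difference between these diet effects was 2.18 ± 0.30 (limma adjusted p = 0.00899), a test added after the values were seen, in which 1.10% of genes were called. The 3'/5' Actb log2 ratio was 1.69 to 1.71 in KO liver and 1.99 to 2.09 in WT liver on HFD, and 1.24 to 1.34 in KO liver and 1.11 to 1.25 in WT liver on ND. Summed signals of 3 bile duct genes were 83.03 to 212 in KO liver and 96.91 to 468 in WT liver on HFD, and Krt19 stayed at or below 11.7 on all HFD liver arrays. The epithelial gene Epcam had 20.86, 24.77 and 20.3 in KO liver and 12.06, 7.42 and 9.55 in WT liver on HFD. The difference was 1.21 ± 0.71 (limma adjusted p = 0.33, not passed). The WT mean of 9.68 lay under the filter level of 12.95, so this difference is not read as a test. The 8 hepatocyte genes summed to 62769.6 to 71285 in KO liver and 79209 to 90035 in WT liver on HFD. The 13 adipocyte genes summed to 3342 to 3933 in KO liver and 1516 to 1991 in WT liver on HFD. Of these, 8 were tested and 4 were called higher in KO liver, where 6.75% of all genes were called. The 4 were Cd36 (2.66), Cidec (2.42), Fabp4 (1.63) and Pparg (1.36). Adipoq, the adiponectin gene, was at 1.29, 18.92 and 7.74 in KO liver and 6.96, 6.72 and 21.26 in WT liver on HFD. The part of RNA quality and of these cell types in the difference was not tested.

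Among the keratins, Krt8 had 2993, 2279 and 2572 in KO liver and 1934, 2051 and 1667 in WT liver on HFD, and 1449, 1568 and 1607 in KO liver and 1473, 1375 and 1757 in WT liver on ND. It rose by 0.75 ± 0.12 on HFD in KO liver (limma adjusted p = 0.00183), and was 0.47 ± 0.12 higher in liver labelled KO than in liver labelled WT on HFD (limma adjusted p = 0.0399), which no longer passed in 7 of 12 alternatives. Krt18 rose by 0.63 ± 0.18 on HFD in KO liver (limma adjusted p = 0.0285), a call that no longer passed in 5 of 12 alternatives: with no filter (limma adjusted p = 0.0509) and without KO mouse 427, 429, 718 or 720 (limma adjusted p = 0.0695 to 0.114). Cdh1 had 179.8, 217 and 167 in KO liver and 305, 424 and 269 in WT liver on ND, and was lower in liver labelled KO (log2 -0.80 ± 0.21, limma adjusted p = 0.043), a call that no longer passed in 7 of 12 alternatives.

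Gpx5, whose other known sites are few, was dim in liver, with lower signals on HFD than on ND arrays. It had 6.9, 18.58 and 9.22 in KO liver and 11.0, 8.6 and 9.15 in WT liver on HFD, against 83.56, 67.69 and 31.66 in KO liver and 47.12, 99.37 and 79.02 in WT liver on ND. No HFD array reached the lowest ND array. The HFD means of 11.57 in KO liver and 9.58 in WT liver lay under the filter level, so the gene passed the filter only through its ND arrays and its calls for diet are not read as a test. It was at least 4.71-fold lower on HFD in KO liver and at least 5.80-fold lower in WT liver.

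**Figure D4:**
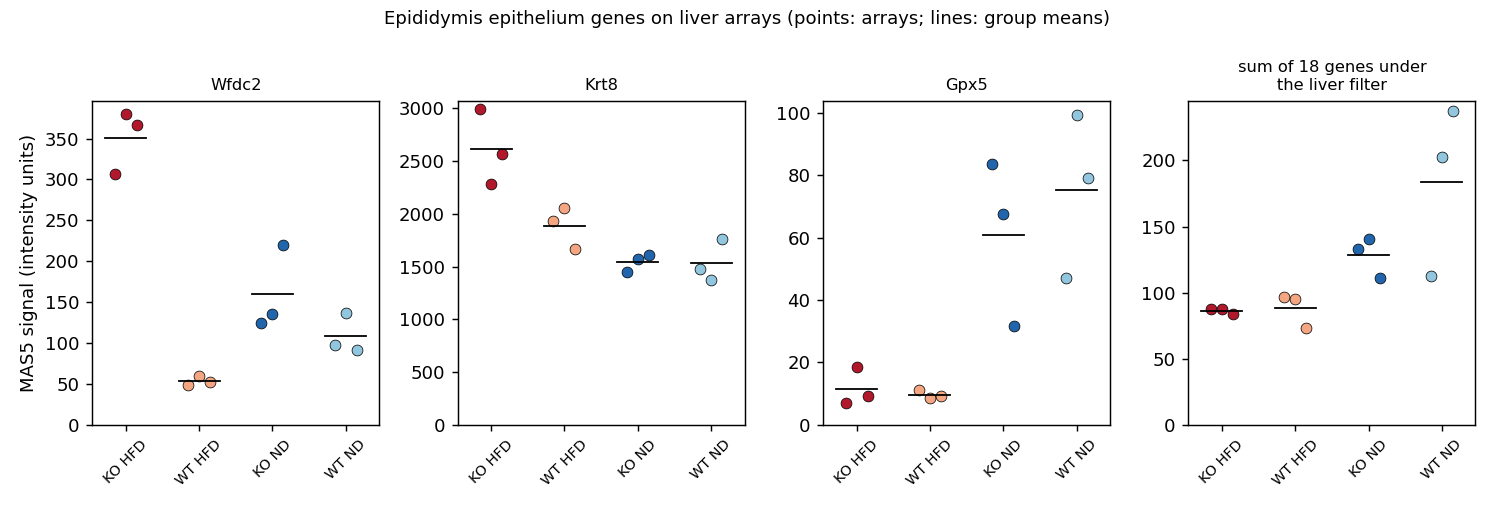
MAS5 signal (intensity units) on the 12 liver arrays for Wfdc2, Krt8 and Gpx5 and summed over the 18 genes under the liver filter, with points for arrays and lines for group means. Wfdc2 is at 306 to 379.88 in KO liver on HFD against 48.25 to 59.22 in WT liver on HFD, and Gpx5 and the sum are lower on HFD than on ND in both genotypes.

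Taken as a sum, the 18 genes under the liver filter showed the same direction at low level. Their summed signal was 73.25 to 96.44 on the 6 HFD liver arrays and 111 to 237 on the 6 ND liver arrays, with the highest sums in WT mice 690 (237) and 687 (202). Lcn5 had 0.73, 5.78 and 8.79 in KO liver and 1.06, 0.68 and 1.26 in WT liver on HFD, against 23.67, 22.6 and 2.36 in KO liver and 19.23, 28.86 and 38.25 in WT liver on ND. Of the 18 genes 14 had a median over HFD liver arrays below that over ND liver arrays, as did 53.8% of the 7235 genes under the filter. The same 18 genes summed to 3339 on the fat array of KO mouse 427 and 61.07 to 145 on the other HFD fat arrays, whereas the liver array of mouse 427 was at 87.61, within the HFD range. These signals lie near the level of the median probe set, the fits with the filter did not test them, and how they came to differ was not tested.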

How the data were processed

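Fat and liver RNA of 12 mice was measured on 24 Affymetrix arrays. The authors deposited linear intensity values made with MAS5, per the submitters' processing notes; the software version, scaling and array quality steps are not given in the sources used here. The mean of each array after trimming 2% at each end was 100.03 to 100.05, array medians were 13.48 to 25.77, and arrays of 1 group correlated with Spearman's rho of 0.889 to 0.964; no arrays were identical. No further scaling was applied.

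Of 45101 probe sets 64 were controls, 34945 had 1 gene symbol in the platform annotation, 932 several and 9160 none, and only those with 1 symbol were named. In each gene the probe set with the highest mean in fat was used. Values under the 10th percentile of a tissue (1.08 in fat, 1.1 in liver) were raised to it, log2 was taken, and genes were tested if their mean over the arrays fitted reached that of the median probe set. limma 3.58.1 (R 4.3.3) with a mean-variance trend was fitted on the 6 fat arrays compared, or on all 12 liver arrays, and p-values were adjusted by Benjamini-Hochberg over all genes tested. Each array of a tissue is a separate mouse, so p-values measure the spread between mice. The fit was tested on simulated data.

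The genes, the marker lists and the tests were chosen with earlier results of these data known. Genes named outside the list were Ffar4, the brightest of each marker list, the 10 genes of most similar pattern, and those of mouse 427, which were picked after their values were seen. The alternatives tried were other arrays in the fit, leaving out each array, averaging all probe sets of a gene, the probe set highest in liver, dropping the filter or the floor, and quantile normalization. Promoters came from RefSeq (GRCm38.p6). Detection calls were not used here.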

Additional observations from a re-analysis of the deposited data

Results flagged for a closer look

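Wfdc2 in liver is given here because the change with diet went up in mice labelled KO and down in mice labelled WT. The diet effect (HFD minus ND, log2) was 1.17 in KO liver and -1.01 in WT liver, and their difference was 2.18 ± 0.30 (limma adjusted p = 0.00899). All 3 KO arrays on HFD (306 to 379.88) exceeded all KO arrays on ND (124 to 219.5), and all 3 WT arrays on HFD (48.25 to 59.22) lay below all WT arrays on ND (91.99 to 137). The test of this difference was added after the values were seen. Its call was kept under 17 of 17 alternatives, with limma adjusted p between 0.00137 and 0.0304. These alternatives refit the same liver arrays and are not a separate test.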

How the results depend on the processing

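No paired analysis was possible because the groups compared within a tissue share no mouse, and a mouse links only its own fat and liver arrays. For KO versus WT fat on ND, where 0 of 26 genes were called, leaving out 1 array gave 0 to 2 (2 without WT mouse 687), and leaving out WT mice 686 and 690 gave 0. For KO versus WT fat on HFD, where 0 of 3 were called, leaving out KO mouse 427 and WT mouse 546 gave 0. With all 12 fat arrays in the fit, 25 genes passed the filter and 3 were called (Adam7, Ros1 and Defb15, each higher in KO). These 3 genes were at most 14.6 on every HFD array and passed the filter only through their ND arrays. Their calls are therefore not read as a test. For KO versus WT liver on HFD the 2 calls became 1 with no filter, with the compared arrays alone and when any compared array other than that of KO mouse 428 was left out (range 1 to 2); Wfdc2 remained in each of these. For KO versus WT liver on ND the 1 call became 0 with no filter, with all probe sets of a gene averaged and when any compared array other than that of WT mouse 690 was left out (range 0 to 1). The cause was not tested. Counts for diet in liver stayed within 1.5 times of those given.

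The median fold bound of HFD below ND was 381 in KO fat and 644 in WT fat when the floor replaced the median probe set as the lowest level, which by construction raises it, and 65.8 in KO fat with all probe sets of a gene averaged. Leaving out 1 array moved it between 77.6 and 114 in KO fat (the highest without KO mouse 427) and between 93.2 and 109.8 in WT fat.

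The number of all genes called depended on the arrays. It was 9 for KO versus WT fat on ND (0 to 926 over the alternatives), 1876 on HFD (2 to 2602), 740 for KO versus WT liver on HFD (278 to 748), 533 on ND (196 to 588), 1860 for diet in KO liver (1150 to 2265), 1408 in WT liver (632 to 1534) and 120 for the liver interaction (37 to 123). Signals near the median probe set limit what can be read on HFD fat arrays and, for 18 genes, in liver.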
